A study of Homo sapiens with 16 samples.

Results

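The transcripts of 10 genes of the neuronal cytoskeleton and the growth cone (NEFL, NEFM, INA, PRPH, GAP43, STMN2, DCX, MAP2, MAPT and MAP1B) were followed in IMR32 neuroblastoma cells depleted of TPX2. The genes were chosen by symbol and found by Ensembl identifier among the 58787 genes of the count table, and all 10 were among the 14193 genes expressed enough to be tested. IMR32 is an established human neuroblastoma line, labelled as neuroblasts from brain, that carries amplified MYCN. Cells received the siRNA si45, si46 or si47, each directed against TPX2, or the non-targeting control siRNA siNTC, with 4 replicates per group and 16 libraries in all. No other treatment or genetic change is labelled, so that all groups are 1 cell line transfected with an siRNA, and the table's headers give 48 h for every library. The design text calls the replicates biological, and the labels do not say whether they came from separate cultures, so p-values measure the spread between these samples.

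Neurofilaments are the intermediate filaments of axons. They are heteropolymers built from light and medium chains (NEFL and NEFM), a heavy chain, alpha-internexin (INA) and, in peripheral neurons, peripherin (PRPH), and they set the calibre of axons. Microtubules of neurites are bound and stabilised by MAP1B early in outgrowth, by doublecortin (DCX) in migrating and young neurons, by MAP2 in dendrites and by tau (MAPT) in axons, while stathmin-2 (STMN2) binds tubulin dimers and GAP43 is a membrane protein of the growing axon tip. Sympathetic neuroblasts and neuroblastoma cells make many of these proteins, and their rise is commonly used as a sign of neuronal differentiation. TPX2, in turn, helps to nucleate the microtubules of the dividing cell's spindle and activates Aurora A kinase.

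Libraries were made from the 3' ends of polyadenylated transcripts, so that 1 read stands for about 1 transcript whatever its length and splice forms that share a 3' end, such as those of MAPT, cannot be told apart. Total counts ran from 5318159 to 7864343 per library, and levels are given as CPM, the usual depth-scaled count, with TMM scaling of library sizes. Members had between 53 counts (PRPH) and 14029 counts (MAP1B) in a library. The targeted transcript, TPX2, averaged 327 ± 27.1 CPM in controls (SD, n = 4), 91.6 ± 19.8 with si45, 81.7 ± 14.3 with si46 and 71.5 ± 3.38 with si47; all 12 knockdown libraries lay below all controls. Of 12 adrenergic neuroblast markers, all were expressed enough to be tested, with a summed level of 5524 to 5844 CPM in siNTC, 5735 to 6288 in si45, 5830 to 5943 in si46 and 5818 to 6390 in si47. Markers of other cell types had lower sums, each carried largely by 1 gene. COL1A1 averaged 35.4 CPM over all libraries among the mesenchymal markers, and PMP22 10.9 CPM among the Schwann cell markers. Of 12 mesenchymal markers 4 could be tested, with sums of 38.6 to 66.6, 39.7 to 52.2, 41.9 to 86.4 and 35.8 to 68.4 CPM in siNTC, si45, si46 and si47, and TGFBR2 had no counts. Of 8 Schwann cell markers 2 could be tested, with sums of 18.3 to 24.7, 16.6 to 24.0, 16 to 25.0 and 13.8 to 18.7 CPM in the same order, and SOX10, which defines that lineage, had no counts in any library. The part of these marker levels in the results was not tested.

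In the control cells the 10 genes spanned more than 100-fold in level. MAP1B was the most abundant by far, at 1866 ± 271 CPM (SD, n = 4), above 99.7% of the genes tested. NEFM (321 ± 67.7 CPM), INA (231 ± 23.7 CPM), DCX (193 ± 16.6 CPM) and MAP2 (172 ± 35.8 CPM) followed, and the ranges of neighbours in this order overlapped between libraries. Within every control library NEFM was above INA (115.6 to 155.0 NEFM counts per 100 INA counts) and INA was above DCX. The order of DCX and MAP2 varied between the control libraries and is not resolved. NEFL (59.0 ± 14.4 CPM), STMN2 (52.7 ± 13.3 CPM) and MAPT (44.5 ± 11.8 CPM) made up a lower tier in which ranges also overlapped, and MAPT overlapped with GAP43 at 27.2 ± 5.77 CPM. PRPH was lowest, at 15.8 ± 3.88 CPM, close to the middle of all genes tested (above 45.2% of them), although peripherin is typical of sympathetic neurons. No range was shared between MAP1B and NEFM, between MAP2 and NEFL, or between GAP43 and PRPH.

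Start-site sequences are shown for the quietest and the loudest of the 10, since both hold the letters TATAAA a short way upstream of an annotated start, where TATA boxes lie. In RefSeq promoter windows of GRCh38.p14, which span the annotated start of transcription, 6 of the 10 genes were matched (INA, PRPH, GAP43, DCX, MAP2 and MAP1B). TATAAA begins 31 bases upstream of a RefSeq PRPH start that lies inside the gene's GENCODE span (chr12:49295104-49295133, plus strand) and 30 bases upstream of the downstream MAP1B start (chr5:72179745-72179774, plus strand); capitals mark the motif.
PRPH: agaccgcagggcTATAAAgccgcctcgcag
MAP1B: caaatccgatccTATAAAaaggcttttgtt
TATAAA was found on either strand in promoters of 3 of the 6 genes (PRPH, DCX and MAP1B) and in 11.5% of 35116 promoters of the table. The E-box CACGTG, the letters preferred by MYC-family factors, was in none of the 6 and in 7.26% of all promoters. Genes were counted on a match in any of their promoters, while the percentages are of single promoters, so these shares are not like for like. A match or its absence describes these letters only. Reads from 3' ends do not show which start was used.

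**Figure D1:**
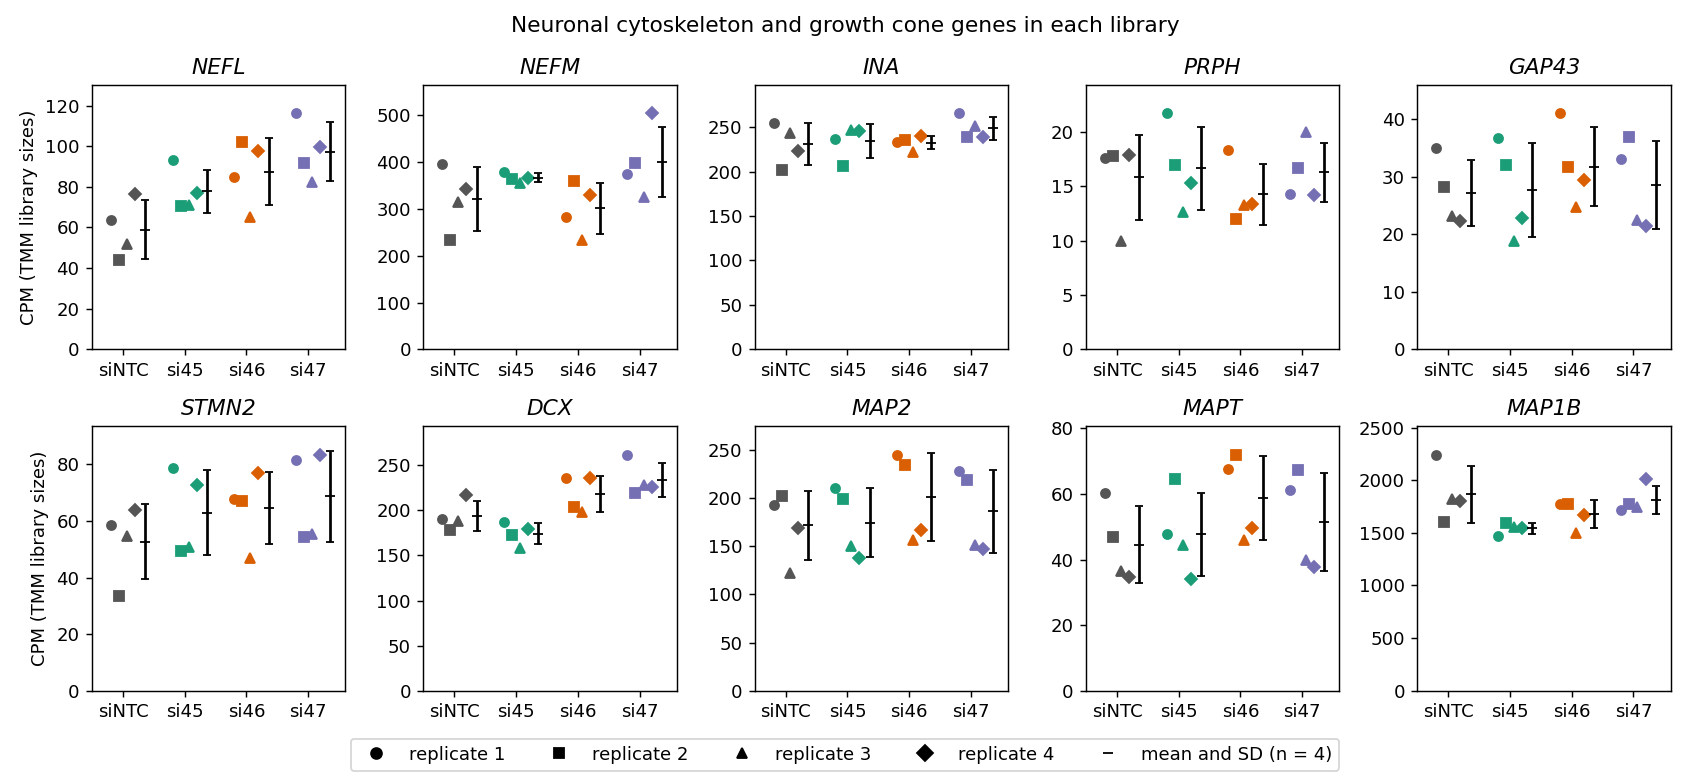
Level of each gene in CPM (y axis, from 0, a scale for each gene) in every library of siNTC, si45, si46 and si47 (x axis), with symbols for the replicate number and bars for the mean and SD of 4 libraries. NEFL in si47 lies above all controls, while most other genes overlap with the controls in every group.

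Few of these genes were called when TPX2 was depleted, in the edgeR model without the replicate number. Over the mean of the 3 siRNAs, 1 of the 10 genes passed an adjusted p under 0.05 (edgeR's quasi-likelihood test over 14193 genes, Benjamini-Hochberg), namely NEFL, which rose. Among all genes tested 7.14% passed in that comparison, so the members' count is near the background. At an unadjusted p under 0.05, 2 members did (NEFL and MAP1B), beside 20.4% of all genes. Under si47, 2 of 10 passed, NEFL and DCX, both higher (9.74% of all genes passed), and the same 2 had an unadjusted p under 0.05, beside 23.3% of all genes. Under si45 and si46, 0 of 10 passed (1.34% and 3.40% of all genes); at an unadjusted p under 0.05, 2 members (NEFL and MAP1B) did under si45 and 1 (NEFL) under si46, where 11.4% and 15.0% of all genes did. DESeq2 called 0 members under si45 and 1, NEFL, under si46. No member was called lower in any of these 4 comparisons without the replicate number in the model. In the order si45, si46, si47 and mean, 1.01%, 2.14%, 4.91% and 3.61% of all genes tested were called higher and 0.324%, 1.25%, 4.83% and 3.53% lower. With the replicate number as a block (edgeR), members called were 2, 2, 3 and 2 in the same order. Genes called were then 577, 1073, 2198 and 1817 of 14193. MAP1B was called lower under si45 in that fit (edgeR adjusted p = 0.0218). The sign of the mean log2 fold change was positive for 8 of 10 members and for 49.8% of all genes, and the members' median was 0.11, against -0.0011 for all genes. The median was 0.05, 0.20 and 0.16 under si45, si46 and si47. These comparisons share the siNTC libraries and are not independent of each other. In bulk libraries, fewer cells of a type and less RNA per cell cannot be told apart.

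**Figure D2:**
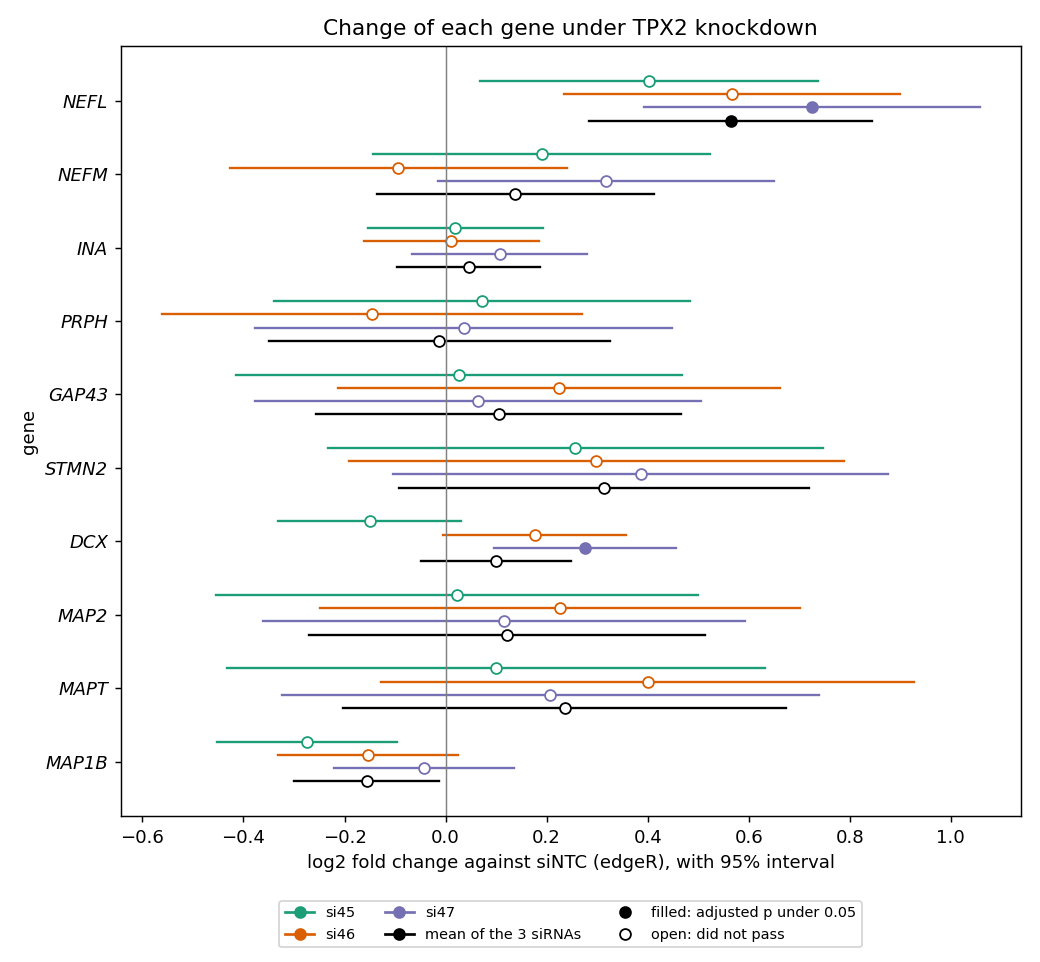
Log2 fold change of each gene against siNTC (x axis) with its 95% interval, not adjusted for the number of genes, for si45, si46, si47 and the mean of the 3 siRNAs; filled points passed an adjusted p under 0.05. Filled points are NEFL under si47 and the mean, and DCX under si47; the intervals of NEFM, INA, PRPH, GAP43, STMN2, MAP2 and MAPT include 0 in all 4 comparisons.

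Among the neurofilament chains, NEFL was the one called against siNTC in the edgeR model without the replicate number; whether the chains differed from each other was not tested. NEFL (ENSG00000277586, chromosome 8, 24950955 to 24957110, minus strand, GENCODE v29 on GRCh38), the light chain on which the other chains assemble, was at 63.8, 43.8, 51.6 and 76.7 CPM in siNTC replicates 1 to 4. It was at 93.2, 70.5, 71.1 and 76.8 CPM in si45, at 84.8, 102, 65.2 and 97.6 CPM in si46 and at 116, 91.6, 82.3 and 99.4 CPM in si47. All 4 si47 libraries were above all 4 controls, as 7.41% of genes tested were, and 3 of 4 did so in si46 and 2 of 4 in si45; no knockdown library was below all controls. The log2 fold changes were 0.40 (SE 0.161, edgeR adjusted p = 0.313) under si45, 0.57 (SE 0.160, adjusted p = 0.0543) under si46 and 0.72 (SE 0.160, adjusted p = 0.00526) under si47. For the mean of the 3 siRNAs it was 0.56 (SE 0.135, adjusted p = 0.012), a 1.48-fold rise, with 9 of 12 knockdown libraries above all controls. The controls themselves were spread, and the call for the mean was lost without siNTC replicate 3 (0.51, edgeR adjusted p = 0.0584). Under si46 the threshold was passed on leaving out siNTC replicate 4 (edgeR adjusted p = 0.00857) or si46 replicate 3 (0.00711). With the replicate number as a block, NEFL passed under si45 and si46 (edgeR adjusted p = 0.0249 and 0.000488). The siRNAs did not separate in the direct tests of NEFL, where si47 less si45 was 0.32 on the log2 scale (95% interval -0.0052 to 0.65, edgeR adjusted p = 0.485).

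NEFM (ENSG00000104722, chromosome 8, 24913012 to 24919098, plus strand), the medium chain, lies next to NEFL. It was at 395, 233, 315 and 341 CPM in siNTC, 379, 364, 356 and 366 CPM in si45, 282, 359, 234 and 329 CPM in si46 and 374, 397, 326 and 504 CPM in si47. Its knockdown libraries were within or near the control range, with 2 of 12 above it, both in si47. Its mean log2 fold change of 0.14 did not pass (SE 0.129, 95% interval -0.14 to 0.41, edgeR adjusted p = 0.609), nor did that under si47, 0.32 (95% interval -0.015 to 0.65, edgeR adjusted p = 0.239), which passed without a low-count filter (0.0196). Between si47 and si46 it differed by 0.41 (95% interval 0.08 to 0.74), which did not pass over all genes (edgeR adjusted p = 0.559).

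INA (ENSG00000148798, chromosome 10, 103277163 to 103290351, plus strand) was the steadiest member, with an SD within groups of 0.105 on the log2(CPM + 1) scale against a median of 0.246 over all genes tested. Controls held 231 ± 23.7 CPM (SD, n = 4), si45 libraries 234 ± 19.0, si46 libraries 233 ± 7.26 and si47 libraries 249 ± 12.7. The 95% interval of its mean log2 fold change, -0.10 to 0.19, bounds any change of INA more tightly than that of the other members. PRPH (ENSG00000135406, chromosome 12, 49293252 to 49298686, plus strand) ranged from 10.02 to 17.87 CPM in siNTC and from 12 to 21.7 CPM in the knockdown libraries. Its libraries held 53 to 145 counts, and the 95% interval of its mean log2 fold change ran from -0.35 to 0.32 around -0.01.

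The chains were also set against each other within each library, which needs no scaling between libraries. This description was chosen after the values were seen and carries no test. There were 16.2, 18.8, 16.4 and 22.5 NEFL counts per 100 NEFM counts in siNTC and 24.6, 19.4, 20.0 and 21.0 in si45. In si46 there were 30.04, 28.5, 27.8 and 29.7, all above all controls, and in si47 31.1, 23.1, 25.3 and 19.7. Per 100 INA counts, the controls held 25.6 ± 6.08 NEFL counts (SD, n = 4), with 33.4 ± 4.5 after si45, 37.5 ± 6.17 after si46 and 39.1 ± 4.77 after si47. NEFM per 100 INA counts overlapped between siNTC (115.6 to 155.0) and each knockdown group, with 105.1 to 211.2 over the knockdown libraries. The ratio of NEFL to NEFM was least spread under si46 (SD 1.03). Under si45 and si47 it overlapped with the controls. The share of gene pairs that separate from the controls as this pair did under si46 was not counted. NEFH, the heavy chain, is not one of the 10 genes and was named after its values were seen. It was at 173 ± 15.96 CPM in the controls and at 191 ± 6.18, 203 ± 18.5 and 185 ± 13.7 CPM after si45, si46 and si47, and its mean log2 fold change of 0.16 did not pass (SE 0.0726, edgeR adjusted p = 0.21).

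**Figure D3:**
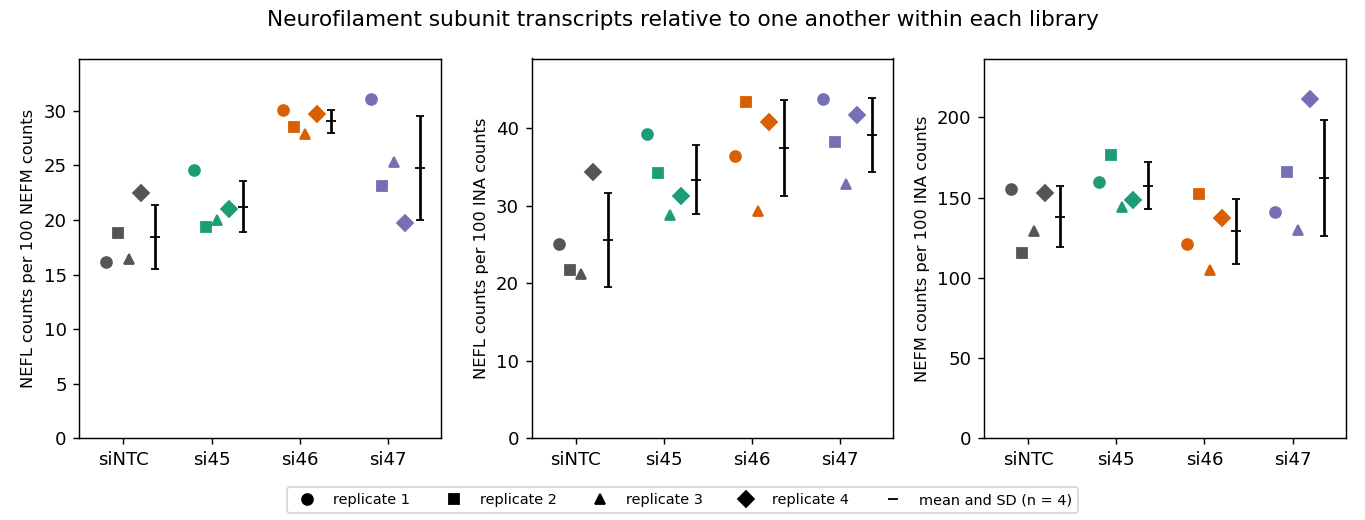
Counts of a neurofilament chain per 100 counts of another chain in the same library (y axis, from 0) by siRNA group (x axis), with symbols for the replicate number and bars for the mean and SD of 4 libraries. NEFL per 100 NEFM in si46 (27.8 to 30.04) lies above all controls (16.2 to 22.5) and in si45 and si47 overlaps with them. NEFM per 100 INA overlaps between groups.

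DCX (ENSG00000077279, chromosome X, 111293779 to 111412429, minus strand) was the member called between siRNAs, si47 against si45, in the edgeR model of the 4 groups alone. It was at 190, 178, 188 and 217 CPM in siNTC, 187, 173, 158 and 179 CPM in si45, 236, 204, 198 and 236 CPM in si46 and 262, 220, 228 and 226 CPM in si47. All 4 si47 libraries were above all controls, 2 of 4 si46 libraries were, and 2 of 4 si45 libraries were below all controls. DCX rose under si47 by 0.28 on the log2 scale (SE 0.0888, edgeR adjusted p = 0.0429), while the values of -0.15 under si45 and 0.18 under si46 did not pass (adjusted p = 0.555 and 0.351). For the mean of the 3 siRNAs its value was 0.10 (edgeR adjusted p = 0.472). The si47 call was lost on leaving out siNTC replicate 1, 2 or 3 (edgeR adjusted p = 0.0949, 0.128 and 0.102), without si47 replicate 1 or 4 (0.174 and 0.0577), and with only the groups compared in the fit (0.0518).

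The difference itself was tested between siRNAs. DCX was 0.43 higher on the log2 scale under si47 than under si45 (SE 0.089, edgeR adjusted p = 0.0267), a 1.34-fold difference, and each si47 library was above each si45 library, as 2.64% of all genes were. Of the 10 members 1, DCX, was past the threshold in that comparison, in which 24 of 14193 genes were (0.169%); at an unadjusted p under 0.05, 2 members were (DCX and MAP1B), beside 10.4% of all genes. With the replicate number as a block, where the 4 same-numbered pairs of these groups each correlated over 0.1, the adjusted p for DCX was 0.000209 and 398 genes passed (2.80%). Without the block the call was lost on leaving out si45 replicate 2, 3 or 4 (edgeR adjusted p = 0.0717, 0.112 and 0.0794), without si47 replicate 1 or 4 (0.145 and 0.0548) and with only these groups in the fit (0.086). Between si46 and si45 DCX differed by 0.33 (95% interval 0.15 to 0.51). This did not pass without the block (edgeR adjusted p = 0.505, unadjusted 0.000819) and passed with it (adjusted p = 0.0276). Between si47 and si46 DCX differed by 0.10 (interval -0.08 to 0.28). Without the block no member passed in si46 against si45 (0.0282% of all genes did) or si47 against si46 (0.0493%). At an unadjusted p under 0.05, 1 member did in each, DCX and NEFM (4.09% and 7.29% of all genes), and DESeq2 called 0 members in both.

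MAP1B (ENSG00000131711, chromosome 5, 72107234 to 72209570, plus strand) had negative log2 values under each siRNA. It was at 2244, 1601, 1820 and 1800 CPM in siNTC, 1470, 1598, 1556 and 1550 CPM in si45, 1776, 1770, 1498 and 1671 CPM in si46 and 1721, 1778, 1746 and 2007 CPM in si47. All 4 si45 libraries were below all controls, by a margin of a few CPM for the highest of them, as was 1 of 4 in si46 and 0 of 4 in si47; 2.95% of all genes had si45 below all controls. The log2 fold changes of -0.27 (SE 0.0878, edgeR adjusted p = 0.137), -0.15 (adjusted p = 0.436) and -0.04 (0.831) under si45, si46 and si47 did not pass in the model of the 4 groups alone. With the replicate number as a block the si45 value passed (-0.27, edgeR adjusted p = 0.0218). Leaving out siNTC replicate 1, the highest library, turned the si47 value to 0.06 in the model without the block. It also took the si45 value to -0.17 (edgeR adjusted p = 0.519) and that of the mean to -0.06 (0.752).

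MAP2, MAPT and GAP43 shared an order by replicate number within the siRNA groups. MAP2 (ENSG00000078018, chromosome 2, 209424058 to 209734118, plus strand) was at 193, 202, 122 and 169 CPM in siNTC replicates 1 to 4, 210, 199, 151 and 138 CPM in si45, 245, 235, 157 and 167 CPM in si46 and 228, 219, 152 and 147 CPM in si47. In all 4 groups the libraries numbered 1 and 2 were thus above those numbered 3 and 4. The share of all genes with that order was not counted. MAPT (ENSG00000186868, chromosome 17, 45894382 to 46028334, plus strand) had the same order, with 60.3, 46.8, 36.5 and 34.5 CPM in siNTC, 47.7, 64.7, 44.4 and 34.0 CPM in si45, 67.5, 72.0, 45.96 and 49.7 CPM in si46 and 61.3, 67.3, 39.99 and 37.6 CPM in si47. GAP43 (ENSG00000172020, chromosome 3, 115623324 to 115721490, plus strand) did too, at 35.0, 28.1, 23.3 and 22.4 CPM in siNTC, 36.6, 32.1, 18.9 and 22.9 CPM in si45, 41.0, 31.6, 24.8 and 29.4 CPM in si46 and 33.2, 36.8, 22.5 and 21.5 CPM in si47. They encode a dendritic, an axonal and a growth cone protein, and none of their transcripts was called under any siRNA in the edgeR model of the 4 groups alone. Their mean log2 fold changes were 0.12 for MAP2 (95% interval -0.27 to 0.51), 0.24 for MAPT (-0.20 to 0.67) and 0.10 for GAP43 (-0.26 to 0.47), with edgeR adjusted p of 0.77, 0.58 and 0.797.

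STMN2 (ENSG00000104435, chromosome 8, 79610814 to 79666175, plus strand), whose product promotes axon regrowth, followed the replicate number in another order. It was at 58.7, 33.5, 54.7 and 63.8 CPM in siNTC, 78.9, 49.4, 50.6 and 72.6 CPM in si45, 67.9, 66.9, 46.8 and 77.1 CPM in si46 and 81.4, 54.2, 55.5 and 83.5 CPM in si47, so that the libraries numbered 1 and 4 were above those numbered 2 and 3 in all 4 groups. For this order too, the share of all genes was not counted. Of the 12 knockdown libraries 7 were above all STMN2 controls and 0 below. Its mean log2 fold change was 0.31 (SE 0.190, 95% interval -0.09 to 0.72), which did not pass in the edgeR model of the 4 groups alone (adjusted p = 0.389).

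The replicate number was then tested as a term of the edgeR model beside the siRNA, a test added after the values were seen. MAP2 (adjusted p = 1.49e-08), MAPT (5.67e-06), GAP43 (0.000251), STMN2 (0.000258) and NEFL (0.0312) differed with the number, 5 of 10 members, where 8.34% of all genes tested did. NEFM, INA, PRPH, DCX and MAP1B did not pass. With the number in the model as a block, STMN2 passed under si47 (0.38, edgeR adjusted p = 0.0166) and for the mean of the siRNAs (0.32, adjusted p = 0.0202), and MAPT passed under si46 (0.40, adjusted p = 0.0158). The labels give no day, batch or culture behind the numbers. Total counts were 5530942 to 7864343 in the libraries numbered 1 or 2 and 5318159 to 6134967 in those numbered 3 or 4, and the part of depth in this pattern was not tested.

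**Figure D4:**
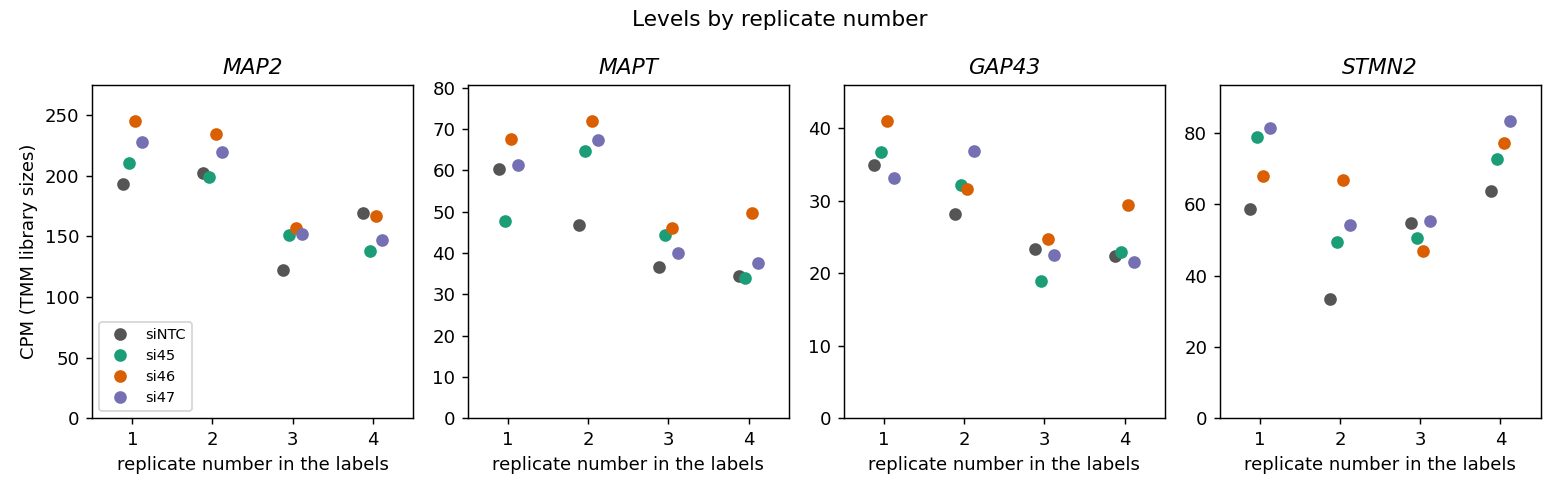
CPM of MAP2, MAPT, GAP43 and STMN2 (y axis, from 0) against the replicate number in the labels (x axis), 1 point per library, coloured by siRNA group. In each group MAP2, MAPT and GAP43 are higher in libraries 1 and 2 than in 3 and 4, and STMN2 is higher in 1 and 4 than in 2 and 3.

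The genes around the set were read from lists. Of 13 other intermediate filament genes, 7 were expressed enough to test, and over the mean of the 3 siRNAs 1 was higher and 1 lower, 2 of 7 beside 7.14% of all genes (3.61% higher and 3.53% lower). Under si47 alone 1 was higher (LMNA) and 3 were lower (SYNM, the B-type lamin gene LMNB1 and the progenitor filament gene NES), 4 of 7 beside 9.74% of all genes. LMNA, which encodes the A-type lamins of the nuclear envelope, rose by 0.55 (SE 0.107, edgeR adjusted p = 0.000827), with 33.3 ± 1.19 CPM in the controls (SD, n = 4) and 46.6 ± 8.39, 46.7 ± 5.82 and 53.6 ± 3.21 CPM after si45, si46 and si47. All 12 knockdown libraries were above all controls for LMNA, as for 1.49% of all genes, and it passed under each siRNA. SYNM, which encodes synemin, a partner of vimentin-type filaments, fell by 0.50 (SE 0.127, edgeR adjusted p = 0.0123), with all 12 knockdown libraries below all controls, as for 1.03% of all genes. Singly, SYNM passed under si47 only.

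Of 32 other genes of microtubule-associated proteins, 30 were tested, and 0 were higher and 1 lower over the mean. DPYSL5, a member of the collapsin response mediator family, fell by 0.38 (SE 0.106, edgeR adjusted p = 0.0201). Among 30 growth cone and axon outgrowth genes, 29 tested, 0 were higher and 1 lower, the guidance receptor gene ROBO1 (fell by 0.26, SE 0.0802, edgeR adjusted p = 0.0378). ROBO1 passed singly under si46, and DPYSL5 under si46 and si47. The kinase and phosphatase genes that act on tau and neurofilaments numbered 23, all tested, with 1 higher, MAPK10, which encodes the neuronal JNK3 (0.42, SE 0.131, edgeR adjusted p = 0.0457), and 0 lower. MAPK10 passed under no single siRNA (edgeR adjusted p = 0.283, 0.087 and 0.133 under si45, si46 and si47). Axonal transport genes gave 0 higher and 2 lower of 24 tested over the mean. Under si47 alone 0 were higher and 4 lower (KIF1A, KIF1B, KIF21A and NDE1), beside 4.91% and 4.83% of all genes. Under si45 and si46 0 passed, beside 1.34% and 3.40% of all genes. Whether the siRNAs differed on this list was not tested. The 2 called over the mean were NDE1, a dynein partner that also acts in mitosis (fell by 0.58, edgeR adjusted p = 0.0261), and the kinesin gene KIF21A (fell by 0.26, adjusted p = 0.0403). The medians of these 4 lists were -0.05, -0.02, 0.02 and 0.0016, beside -0.0011 for all genes. At 7.14% over all genes, the counts of 1 of 30, 1 of 29, 1 of 23 and 2 of 24 are near or under the background.

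Of 29 neuronal and synaptic differentiation genes, all tested, 2 were higher and 2 lower, with a median of 0.01. That is 4 of 29, and the counts for the next 2 lists are 2 of 16 and 3 of 12, beside the 7.14% of all genes called over the mean (3.61% higher and 3.53% lower). The granule protein genes SCG2 and CHGA rose by 0.75 (SE 0.147, edgeR adjusted p = 0.00308) and 0.67 (SE 0.182, adjusted p = 0.0431). They were above all controls in 12 and 11 of 12 knockdown libraries, where 1.49% of all genes had all 12 above. For SCG2 the margin was slight, with 68.47 CPM in the lowest si45 library against 68.46 CPM in the highest control. Under si45 alone neither passed (SCG2 0.39 and CHGA 0.37, edgeR adjusted p = 0.384 and 0.574). NGFR, the p75 neurotrophin receptor gene, was at 14.4 ± 1.79 CPM in the controls and at 8.37 ± 1.83, 8.94 ± 2.63 and 8.30 ± 2.52 CPM after si45, si46 and si47, and fell by 0.76 (SE 0.190, edgeR adjusted p = 0.00978). SV2A, a synaptic vesicle protein gene, fell by 0.27 (SE 0.0743, adjusted p = 0.0215). With the siRNAs taken singly, NGFR passed under si47 only and SV2A under none. Of 16 genes of the REST repressor complex and of neuronal mRNA regulation, 0 were higher and 2 lower, with a median of -0.02. PTBP1, a splicing repressor of neuronal exons, fell by 0.30 (SE 0.0767, edgeR adjusted p = 0.012) and the corepressor gene SIN3A by 0.31 (SE 0.0845, adjusted p = 0.0178). Both passed singly under si47 only. The adrenergic markers had a median of 0.17, and 2 of 12 were higher (TBX2 and HAND2, by 0.33 and 0.23) and 1 lower (DBH, fell by 0.56; edgeR adjusted p = 0.00378, 0.0193 and 1.27e-05). DBH passed under each siRNA, TBX2 under si45 and si46, and HAND2 under si47. Of the testable mesenchymal and Schwann cell markers, 4 and 2 genes, 0 passed (edgeR, adjusted p under 0.05).

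Genes whose pattern was most like that of NEFL were sought among all genes tested by the root-mean-square difference over the 16 libraries on the log2(CPM + 1) scale, each gene centred on its siNTC mean. The closest were SRSF8, PRKAB2 and KDM6B, with differences of 0.146, 0.176 and 0.182 against a median of 0.621 over all genes. Their mean log2 fold changes were 0.54, 0.58 and 0.50, and a rise like that of NEFL was fixed by the choice, so no test is given. In levels, SRSF8 went from 27.4 to 40.1 CPM (means of siNTC and of the 12 knockdown libraries), PRKAB2 from 34.6 to 51.8 CPM and KDM6B from 35.5 to 50.4 CPM.

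Neighbouring genes could add reads to some members, since the use of strand in counting is not stated. An antisense gene, AF106564.1, overlaps NEFM with a mean of 10.2 CPM over the 16 libraries, and AC107373.2 overlaps NEFL on the opposite strand with 2.20 CPM. Other annotated genes that overlap members were each below 1 CPM, and INA, STMN2 and DCX overlap no other gene in the annotation.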

How the data were processed

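RNA of 16 IMR32 libraries, 4 per siRNA, was profiled by 3' end sequencing (QuantSeq with 15 PCR cycles, per the labels' protocols). The authors deposited raw read counts per Ensembl gene, not normalized. FastQC 0.11.7, STAR 2.7.2b, edgeR 3.36.0, limma 3.50.3 and GRCh38 are listed, with no roles, per the submitters' processing notes. The counter, annotation, strand use and any collapsing of duplicates are not given in the sources used here, so intervals cover the spread between libraries only. Each column name held the siRNA and replicate of 1 sample, and symbols for 58434 of 58787 identifiers came from a table of gene names.

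Counts were fitted with edgeR 4.0.16 in R 4.3.3: filterByExpr (minimum count 10, minimum total 15), TMM scaling, and 1 robust quasi-likelihood model of 4 group means without covariates. Contrasts were each siRNA and their mean against siNTC, and each pair of siRNAs, with Benjamini-Hochberg adjustment over 14193 genes and a threshold of 0.05. Standard errors are the log2 fold change divided by the square root of F. On simulated counts for si45 against siNTC, 200 of 14193 genes were changed by 1 on the log2 scale, and 13917 genes then passed the filter. Of the 200, 69.5% were recovered, with 11 false calls. Smaller changes, such as the 0.72 of NEFL under si47, were not simulated. Libraries were drawn with no link by replicate number. Positions are from GENCODE v29, on GRCh38. Same-numbered libraries of si47 and si45 deviated together (r = 0.12 to 0.242), which comes from the data and not the labels.

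The members and lists were chosen with earlier results of these data known. Named genes were all members, TPX2, up to 4 called genes of each other list (smallest p, mean of the siRNAs), and the 3 genes nearest to each member called there. Alternatives were RLE factors, DESeq2 1.42.0, other low-count filters, only the groups compared, the replicate block and leaving out each library.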

Additional observations from a re-analysis of the deposited data

Results flagged for a closer look

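Among 40 groups of 4 libraries (the CPM of 10 genes in 4 groups), 1 held a library set apart from its 3 replicates (its gap to the nearest one, divided by the group's range, was above the 95% critical value of Dixon's test for 4 samples), where chance gives about 2. PRPH in siNTC replicate 3 was at 10.02 CPM against 17.64 to 17.87 CPM in the other controls (ratio 0.971), from 53 counts.

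DCX was called between siRNAs that target the same gene, with a log2 fold change of 0.425 for si47 against si45 (edgeR adjusted p = 0.0267). The call held in 3 of 8 fits that left out 1 library and was lost with only these groups in the fit (0.086). Its values against siNTC had opposite signs (0.28 and -0.15), though that under si45 did not pass (edgeR adjusted p = 0.555).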

How the results depend on the processing

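TMM and RLE scaling gave the same calls for all 10 genes, as did a filter of at least 10 counts in every library, and the median of all genes moved by under 0.1 on the log2 scale in each. Of 248 values of single genes under settings other than leaving out a library, 234 kept direction and call, 11 gained a call, 3 lost one and 0 changed sign.

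With the replicate block (edgeR), members called were 2, 2, 3 and 2 under si45, si46, si47 and the mean, against 0, 0, 2 and 1 without it, and 1 for si46 against si45 against 0; genes called were 577, 1073, 2198, 1817, 33 (si46 against si45), 398 (si47 against si45) and 108 (si47 against si46), against 190, 482, 1382, 1014, 4, 24 and 7. The added members were NEFL (adjusted p = 0.0249) and MAP1B (lower, 0.0218) under si45, NEFL (0.000488) and MAPT (0.0158) under si46, STMN2 under si47 (0.0166) and the mean (0.0202), and DCX for si46 against si45 (0.0276). Other than for si47 and si45, not every same-numbered pair correlated over 0.1, though all were positive (lowest r 0.0188, si47 and siNTC). Every library correlated best with its own number in 4 of the 6 pairs of groups. In si46 and siNTC, and in si47 and siNTC, 5 of 8 libraries did. These are signs from the data that the numbers link libraries, and the labels do not state such a design.

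Without a low-count filter NEFL was called under si45 and si46 (1 member each) and NEFM for si47 against si46 (1); genes called were 356 for si45, 14 for si46 against si45, 166 for si47 against si45 and 44 for si47 against si46. DCX then missed under si47 (adjusted p = 0.0586) and NEFM passed there (0.0196). DESeq2 called 1 member (NEFL) under si46, and 292 genes for si45, 13 for si46 against si45, 153 for si47 against si45 and 45 for si47 against si46. With only the groups compared, members called were 1 under si47 and 0 for si47 against si45, and 4 genes were called for si47 against si46. The cause was not tested.

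Leaving out 1 library at a time, members called ran from 0 to 0 under si45, 0 to 1 under si46, 1 to 2 under si47, 0 to 1 for the mean, and 0 to 1 for si47 against si45; genes called ran from 97 to 406 (si45), 252 to 532 (si46), 932 to 1664 (si47), 629 to 1388 (mean), 4 to 7 (si46 against si45), 10 to 147 (si47 against si45) and 2 to 23 (si47 against si46). NEFL stayed between 0.45 and 0.71 for the mean, past the threshold in 15 of 16 fits, and passed in 8 of 8 under si47. Log2 values near 0 changed sign: under si45, INA (-0.036 to 0.083), PRPH (-0.090 to 0.18), GAP43 (-0.13 to 0.17), MAP2 (-0.11 to 0.12) and MAPT (-0.075 to 0.28); under si46, NEFM (-0.22 to 0.021) and INA (-0.047 to 0.062); under si47, PRPH (-0.13 to 0.10), GAP43 (-0.081 to 0.21), MAP2 (-0.016 to 0.21) and MAP1B (-0.11 to 0.058); for the mean, INA (-0.011 to 0.096), PRPH (-0.17 to 0.052) and MAP2 (-0.010 to 0.21). PRPH rests on the fewest counts of the 10 genes, 53 to 145 per library.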
